A study of Mus musculus with 48 samples.

Results

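In thymic iNKT17 cells, 833 stretches of chromatin were at least 4 times as open as in iNKT1 and in iNKT2 cells, among 54489 regions measured by ATAC-seq (1.53%). ATAC-seq counts DNA fragments cut out of accessible chromatin by a transposase, so a high count marks DNA that proteins can reach. A region was taken when its width was at most 10000 bases, its mean level over both iNKT17 libraries was at least 10 CPM (the count over the library's total, scaled as CPM), and that mean was at least 4 times the mean of iNKT1 and also at least 4 times the mean of iNKT2. The accessibility values below therefore chose the regions and are given as a description, without a test. Position, sequence and RNA of the neighbouring genes were not part of the choice.

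The cells were iNKT17, iNKT1 and iNKT2 cells, sorted from the thymus of FVB/N mice, with 2 ATAC and 2 RNA libraries for each sublineage. The labels give no treatment, age, pooling or sort markers for these libraries. They do not say that libraries of a sublineage came from separate animals, and the spread that every p-value below rests on may therefore be technical. In bulk samples, fewer cells of a type and less RNA per cell cannot be told apart. The ATAC counts came to 18371274 and 34813023 in iNKT17, 42964216 and 25502839 in iNKT1, and 17373112 and 13299586 in iNKT2, summed over all regions. The RNA libraries held 26811373 to 33688697 reads. Read counts of genes correlated less between the iNKT17 RNA libraries (Spearman 0.769) than between those of iNKT1 (0.863) and iNKT2 (0.860). Coordinates are those of the deposited table, which the submitters' notes place on build mm10 (GRCm38); whether its starts count from 0 or 1 is not stated.

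Invariant natural killer T (iNKT) cells recognise glycolipids on CD1d and leave their thymic precursor stage already committed to an effector type. iNKT17 cells carry the receptors for interleukin 23 and interleukin 1, and can release interleukin 17 quickly when these receptors are engaged. iNKT1 cells follow T-bet and make interferon gamma, and iNKT2 cells express high PLZF and make interleukin 4. Genes of such effector programs are commonly controlled by distant stretches of DNA, enhancers, that are open in the cells able to use the gene and bound there by transcription factors such as AP-1 and RUNX proteins.

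The labels were set against marker RNA. Summed over a list of 39 type 17 genes, RNA reached 21863 and 20000 CPM in iNKT17 cells, against 6190 and 6411 CPM in iNKT1 and 7700 and 6326 CPM in iNKT2 cells. A list of 14 type 1 genes summed to 785 and 768 CPM in iNKT17, against 6687 and 6476 CPM in iNKT1 and 230 and 246 CPM in iNKT2. A list of 11 type 2 genes summed to 1779 and 2067 CPM in iNKT17, against 337 and 410 CPM in iNKT1 and 3272 and 3068 CPM in iNKT2; 4 of the 11 rose in iNKT17 against iNKT1. Kit, found on type 3 innate lymphoid cells, had 0 reads in all 6 libraries. Trdc, the constant gene of the delta T cell receptor, had 0 reads in both iNKT17 libraries, and Rag1, Rag2, Dntt and Ptcra, which mark immature thymocytes, also had 0 reads there. The 7 stromal and epithelial markers summed to 90.9 and 64.4 CPM in iNKT17, against 5.52 and 19.1 CPM in iNKT1 and 151 and 128 CPM in iNKT2. The 7 double-positive thymocyte markers summed to 25.3 and 81.9 CPM in iNKT17, against 25.0 and 33.4 CPM in iNKT1 and 149 and 98.9 CPM in iNKT2. The 7 gamma delta T cell genes summed to 4294 and 3806 CPM in iNKT17, against 676 and 719 CPM in iNKT1 and 1556 and 1451 CPM in iNKT2. The 6 B and plasma cell markers reached at most 5.77 CPM in any library, and the 7 myeloid markers at most 34.2 CPM. Dendritic cell markers had 0 reads everywhere, and erythroid markers 0 reads in iNKT17. The part of such cells in the results was not tested.

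Among the regions were the promoters of the genes that define type 17 cells. The 250 bases before a known start are shown for Il17a, Il17f, Il23r and Il1r1. Each window was overlapped by a region open mainly in iNKT17. They were chosen because these genes encode the effector cytokines and the receptors that trigger them. Sequences are the RefSeq reference on build GRCm38.p6, read 5′ to 3′ along the gene, not the FVB/N sequence. Capitals mark matches on either strand to AGGTCA (the core letters bound by many nuclear receptors, with a T directly before it also in capitals), TGANTCA (AP-1) and TGTGGTT (RUNX).
Il17a: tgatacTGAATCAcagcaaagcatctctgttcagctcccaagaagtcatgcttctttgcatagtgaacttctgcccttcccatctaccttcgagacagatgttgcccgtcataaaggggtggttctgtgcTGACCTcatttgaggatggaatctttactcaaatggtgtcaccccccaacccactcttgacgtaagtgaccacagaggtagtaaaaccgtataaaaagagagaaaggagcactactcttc
Il17f: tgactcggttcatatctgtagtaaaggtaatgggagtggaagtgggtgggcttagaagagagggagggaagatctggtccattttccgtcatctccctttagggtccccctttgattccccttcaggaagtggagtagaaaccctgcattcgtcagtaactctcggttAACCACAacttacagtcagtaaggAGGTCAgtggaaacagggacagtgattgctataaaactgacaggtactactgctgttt
Il23r: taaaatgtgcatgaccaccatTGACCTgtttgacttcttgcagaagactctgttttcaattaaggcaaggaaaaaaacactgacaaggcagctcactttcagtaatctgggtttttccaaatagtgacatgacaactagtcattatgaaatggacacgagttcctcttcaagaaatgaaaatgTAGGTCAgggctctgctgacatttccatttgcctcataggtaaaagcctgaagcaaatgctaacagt
Il1r1: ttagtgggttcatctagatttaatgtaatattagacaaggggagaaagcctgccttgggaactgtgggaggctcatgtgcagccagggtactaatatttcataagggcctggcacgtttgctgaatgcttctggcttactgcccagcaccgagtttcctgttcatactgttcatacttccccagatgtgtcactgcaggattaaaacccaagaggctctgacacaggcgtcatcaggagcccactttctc

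The Il17a window lies at chr1:20730655-20730904 on the plus strand and holds an AP-1 match 244 bases and an AGGTCA match 120 bases before the start. The Il17f window, chr1:20784271-20784520 on the minus strand, holds a RUNX match at 82 bases and an AGGTCA match at 58 bases before the start. The Il23r window, chr6:67491856-67492105 on the minus strand, holds AGGTCA matches 229 and 66 bases before the start. The Il1r1 window, chr1:40224830-40225079 on the plus strand, holds none of these letters. The starts used for Il17f and Il1r1 lie inside the annotated gene span, which begins further upstream. Positions count back from the start used to the first base of the match as printed.

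Regions open mainly in iNKT17 overlapped 24 such windows, which belong to 21 genes because Tmem176a and Tmem176b have several annotated starts. An AGGTCA match was present in 3 of the 24 (12.5%), those of Il17a, Il17f and Il23r, against 12.8% of all 21263 windows. The same count was made in the 19 windows overlapped by a region open mainly in iNKT1. AP-1 letters were found in 8.33% of the 24 windows, against 21.1% of the iNKT1 windows and 6.13% of all. RUNX letters were found in 8.33%, against 10.5% and 3.82%, and TGCTGAC (MAF) in 12.5%, against 10.5% and 3.54%. TGGAAA (NFAT) was found in 29.2%, against 5.26% and 17%, and CAGGTG (E-box) in 29.2%, against 21.1% and 16.9%. Some windows of Tmem176a and Tmem176b overlap, so the same letters can be counted in several windows. This was so for NFAT and E-box matches. The SP/KLF letters GGGCGGG were found in 16.7% of the windows of iNKT17 regions, against 21.1% of the iNKT1 windows and 31.1% of all. The GATA letters, searched as AGATAA, were found in 4.17%, against 10.5% of the iNKT1 windows and 8.81% of all. The ETS letters, searched as ATTTCCT, were found in 4.17%, against 0% of the iNKT1 windows and 5.57% of all. Of the other motifs searched, the T-box letters AGGTGTGA were in 0 of the 24 windows. The TCF/LEF letters, written ACATCAA, were also in 0 of them. The same 0 held for the letters searched for STAT factors, TTCCNGGAA. Those searched for IRF factors, GAAANTGAA, were in 0 as well. The windows overlapped by these regions held a median of 4 CpG pairs, against 6 in the iNKT1 windows and 18 in the 6806 windows overlapped by a strong region about equally open in all 3 sublineages. These are counts of letters, and 24 and 19 windows give coarse shares.

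Most of the regions lay far from gene starts. Only 28 of the 833 (3.36%) came within 1000 bases of a known start of a protein-coding gene, against 5.76% of 399 regions open mainly in iNKT1, 2.3% of 792 open mainly in iNKT2, 58.1% of 10485 strong regions about equal in the 3 sublineages, and 22.6% of all regions. The iNKT1 and iNKT2 sets were picked by the same rule with the sublineages exchanged, and the equal set had a mean of at least 10 CPM everywhere and means within a factor of 1.5 of each other. The median distance to the nearest known start was 43363 bases, against 26580 for the iNKT1 set, 51821 for the iNKT2 set, 326 for the equal set and 17513 for all regions. Of the 790 regions on chromosomes with known starts, 227 lay more than 100000 bases from any. Known starts cover 17492 of 21887 protein-coding genes and none on chromosome 18, so the distances are upper limits. The middle of a region lay inside a protein-coding gene for 480 of the 833 (57.6%), against 51.6% for the iNKT1 set, 47.3% for the iNKT2 set and 60.4% for all regions. Exons and introns were not told apart here.

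**Figure D1:**
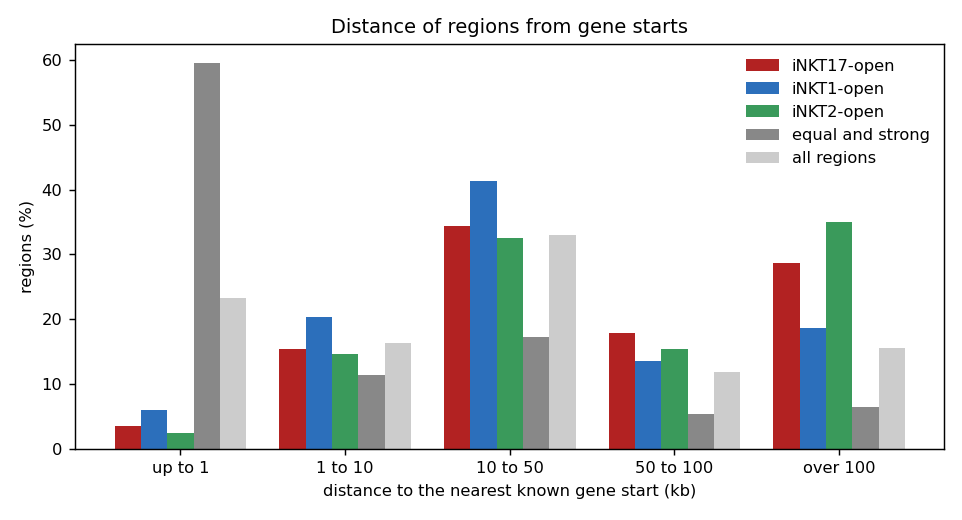
Share of regions (%) by distance to the nearest known gene start (kb), for regions open mainly in iNKT17 (red), the same kind of set for iNKT1 (blue) and iNKT2 (green), strong regions about equal in all 3 (dark grey) and all regions (light grey). The red bar for up to 1 kb stands at 3.5%, far below the dark grey bar at 59.5%, taken over regions on chromosomes with known starts.

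The regions had a median width of 698 bases (quartiles 575 and 848), against 485 bases over all regions (quartiles 307 and 732). The strong regions about equal in the sublineages, also chosen with a minimum level, were wider, with a median of 780 bases (quartiles 567 and 987). CPM was not corrected for width, and the part of the level limit in these widths was not tested. The iNKT1 set had a median of 649 bases, similar to the 698 bases of the iNKT17 set. The iNKT2 set had a median of 88 bases, so its regions are of another size class. Regions open mainly in iNKT17 occurred on every autosome, at 1.03% to 2.65% of the regions there. On chromosome X they made up 4 of 1140 regions (0.351%). No annotated miRNA hairpin lay in a region (0 found).

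Levels of the 833 regions were far apart between sublineages. The median region had 14.0 and 21.0 CPM in the iNKT17 libraries, against 0.838 and 0.510 CPM in the iNKT1 libraries and 2.76 and 1.58 CPM in the iNKT2 libraries. Mean levels in iNKT17 ran from 10.0 to 95.2 CPM with a median of 17.4, and the median ratio to the higher of the other means was 7.94. In every one of the 833, both iNKT17 libraries stood above all 4 other libraries, which the rule largely fixes; the same held for 16.7% of all regions. In 561 of them each iNKT17 library was at least 4 times each of the other 4. iNKT17 library 2 was above library 1 in 772 of the 833 (92.7%), with a median ratio of 1.48, while over all regions the ratio was 1.03. Together the regions took up 1.84% of all fragments in iNKT17, against 0.0890% in iNKT1 and 0.231% in iNKT2.

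**Figure D2:**
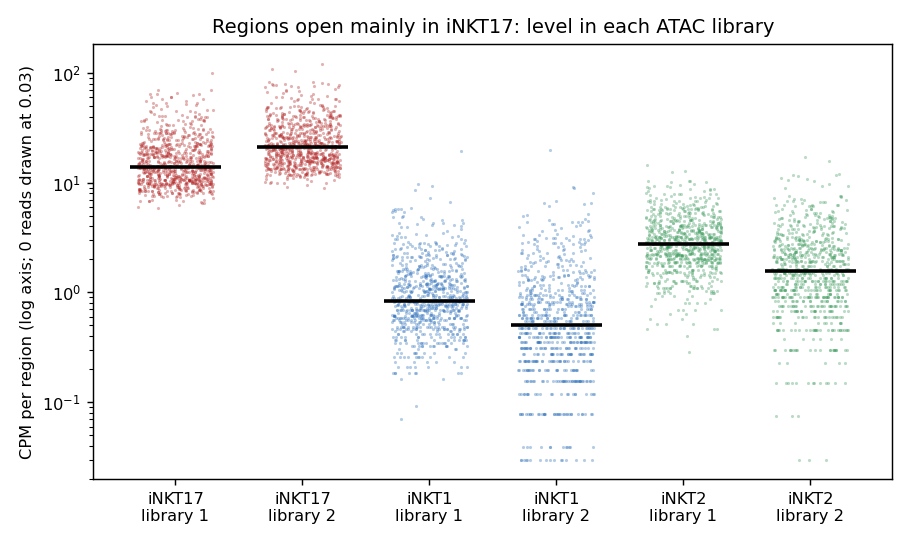
Level of each of the 833 regions in each of the 6 ATAC libraries, in CPM on a log axis; each dot is a region and each black line the median of a library. The iNKT17 medians stand at 14.0 and 21.0 CPM, the iNKT1 medians at 0.838 and 0.510 CPM, and the iNKT2 medians at 2.76 and 1.58 CPM.

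The lower level was not the same in iNKT1 and iNKT2. The iNKT2 mean was above the iNKT1 mean in 796 of the 833 regions (95.6%), against 59.6% of all regions. It was at least 2 times the iNKT1 mean in 626 regions, and the reverse held in 8. The shares of all regions with such a difference were not counted. The levels compared were low, with medians of 2.21 CPM in iNKT2 and 0.681 CPM in iNKT1. Both iNKT2 libraries stood above both iNKT1 libraries in 595 regions (71.4%), against 41.4% of all regions. The rule set no order between iNKT1 and iNKT2, but it required the iNKT17 mean to be at least 4 times each. It set no upper limit on either, and the region inside Nebl had a mean of 19.7 CPM in iNKT1.

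Some regions lay in runs. Neighbours less than 50000 bases apart formed 694 runs, of which 92 held more than 1 region and together 231 of the 833. The longest run held 8 regions over 69110 bases at Il1r1, the next 7 regions over 54847 bases in Myo16, and the third 6 regions over 99412 bases at Il17a and Il17f. Assigned to the protein-coding gene that contains a region's middle, or otherwise to the nearest one, the 833 regions belonged to 665 genes. Of these, 550 had 1 region, 86 had 2 and 29 had 3 or more.

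Il17a and Il17f, neighbouring genes for the interleukin 17 cytokines A and F, shared the run of 6. The region on the Il17a start, chr1:20730571-20731369, had 33.1 and 47.6 CPM in iNKT17, against 0.605 and 0.431 CPM in iNKT1 and 2.65 and 1.5 CPM in iNKT2. A region 5056 bases before the start, chr1:20725514-20726184, had 21.8 and 39.9 CPM in iNKT17, against 0.186 and 0.0392 CPM in iNKT1 and 2.01 and 2.86 CPM in iNKT2. The region on the Il17f start, chr1:20784049-20784809, had 19.9 and 37.7 CPM in iNKT17, against 0.582 and 0.157 CPM in iNKT1 and 1.15 and 0.977 CPM in iNKT2. Each of the 3 was thus high in both iNKT17 libraries and low in the other 4. The other 3 regions of the run had means of 17.4, 15.7 and 30.4 CPM in iNKT17. A stronger region 9.7 kb past the Il17a start stayed outside the rule, with a mean of 54.8 CPM in iNKT17 against 1.31 in iNKT1 and 17 in iNKT2.

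Il1r1, which encodes the signalling receptor for interleukin 1, had 8 of its 12 regions in the set, more than any other gene. The strongest, chr1:40210582-40211516, lay 11431 bases before the gene and had 40.2 and 42.3 CPM in iNKT17, against 1.65 and 0.863 CPM in iNKT1 and 3.51 and 2.11 CPM in iNKT2. The region on the start used here, chr1:40224859-40225321, lay inside the gene span. It had 14.5 and 17.8 CPM in iNKT17, against 0.489 and 0.118 CPM in iNKT1 and 0.979 and 1.13 CPM in iNKT2. In each of these both iNKT17 libraries were alike and the other libraries low.

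Il23r, which encodes the specific chain of the interleukin 23 receptor, had 4 of its 8 regions in the set. The region on its start, chr6:67491462-67492319, had 21.5 and 32.6 CPM in iNKT17, against 0.745 and 0.471 CPM in iNKT1 and 2.01 and 0.752 CPM in iNKT2. The other 3 lay inside the gene, 8560, 16006 and 32241 bases past the start. Their means were 25.2, 25.0 and 11.0 CPM in iNKT17, with none of the iNKT1 or iNKT2 means above 1.46 CPM.

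**Figure D3:**
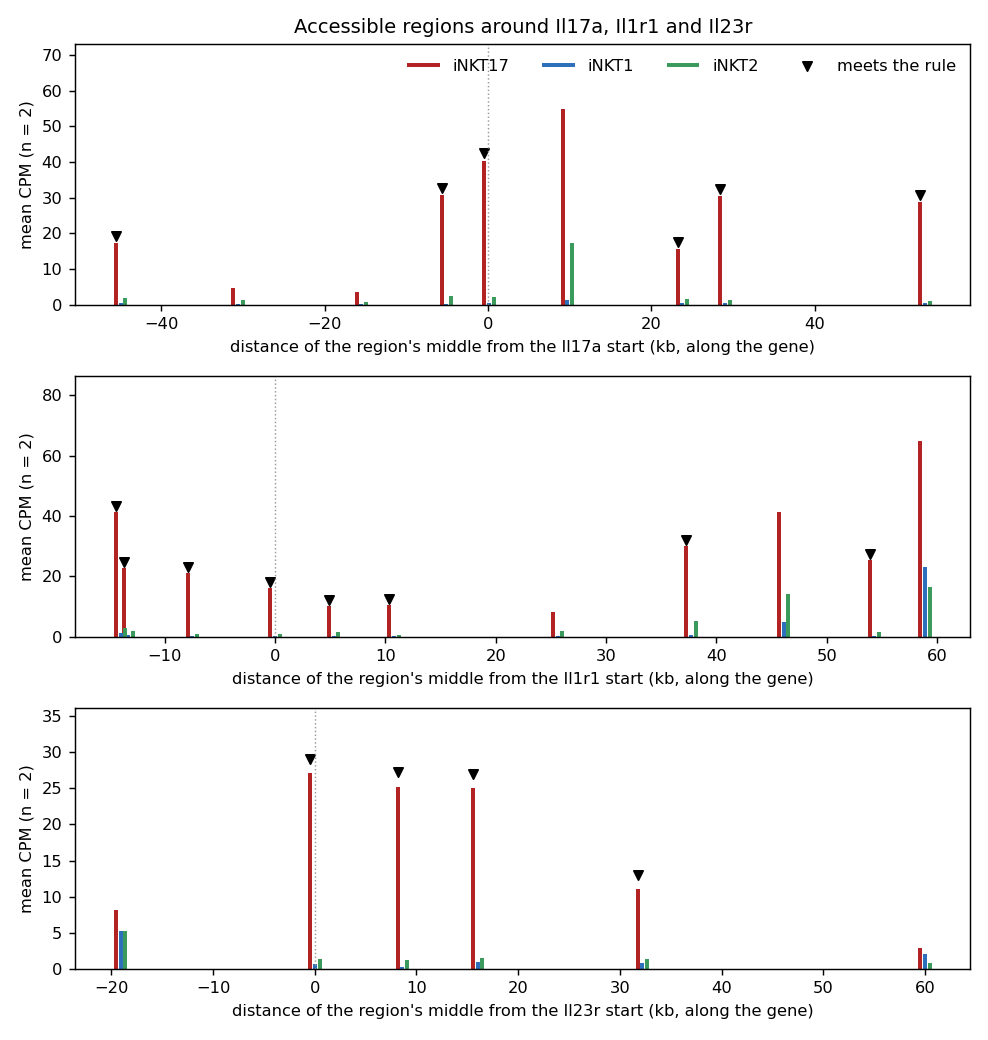
Regions around the starts of Il17a, Il1r1 and Il23r: the horizontal axis is the distance of a region's middle from the gene start (kb, along the gene), and the bars, drawn side by side, are the mean CPM of 2 libraries in iNKT17 (red), iNKT1 (blue) and iNKT2 (green). Triangles mark the 6, 8 and 4 regions that met the rule, including a region at each of the 3 starts. The Il1r1 start used lies inside the gene span.

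Il22, a further type 17 cytokine gene, had a region of 41.2 and 68.1 CPM in iNKT17, against 1.26 and 0.706 CPM in iNKT1 and 5.30 and 4.14 CPM in iNKT2. It lay at chr10:118206317-118207189, inside the gene and 1789 bases past the start. Both iNKT2 libraries stood between those of iNKT17 and iNKT1.

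Blk, a Src-family kinase known from B cells and from gamma delta T cells that make interleukin 17, had 4 regions inside the gene. Their iNKT17 values ran from 10.8 to 43.9 CPM, against 0.118 to 4.89 CPM in iNKT1 and 2.33 to 9.32 CPM in iNKT2. Sdc1, the heparan sulfate proteoglycan syndecan 1 that marks iNKT17 cells, had 2. Its region inside the gene, chr12:8786190-8787336, had 28.4 and 40.7 CPM in iNKT17, against 1.82 and 0.823 CPM in iNKT1 and 6.85 and 3.08 CPM in iNKT2. Pxdc1 had 3 regions and Tmem176b 1, each with a region on its start. Ahr, the aryl hydrocarbon receptor, and Nrp1, the co-receptor neuropilin 1, had 1 each, but these lay 114710 and 241584 bases from the gene, so the assignment is by distance alone.

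In all, 12 of the 39 genes of the type 17 list had 32 regions in the set, of 308 assigned to the list. Genes of the list had 3 regions in the iNKT1 set and 4 in the iNKT2 set. Over all 54489 regions, 833 were in this set (1.53%), 399 in the iNKT1 set and 792 in the iNKT2 set. Of all 15268 genes with an assigned region, 665 had a region in this set. Of 92 regions of 14 type 1 genes, 1 was open mainly in iNKT17, assigned to Ifng, and 19 were in the iNKT1 set. Of 99 regions of 11 type 2 genes, 2 were open mainly in iNKT17, both assigned to Gata3. They lay 97119 and 891831 bases away from it. The region of Il17re, a receptor chain for interleukin 17C, missed the rule narrowly: its mean was 19.41 CPM in iNKT17 against 0.8012 in iNKT1 and 4.854 in iNKT2, a ratio of 3.998.

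The strongest regions were mostly not near genes known from type 17 cells. The highest mean belonged to a region inside Nebl, a gene for a nebulin-like muscle protein, chr2:17702370-17703429, with 69.3 and 121 CPM in iNKT17, against 19.5 and 20.0 CPM in iNKT1 and 12.4 and 10.5 CPM in iNKT2. It was among the least closed elsewhere. A region in the keratin gene Krt28, chr11:99369881-99370448, had 99.3 and 78.1 CPM in iNKT17, against 1.30 and 0.549 CPM in iNKT1 and 10.2 and 8.95 CPM in iNKT2. The region nearest Ctnnd2, which encodes delta-catenin, had 70.5 and 105 CPM in iNKT17, against 1.37 and 1.18 CPM in iNKT1 and 3.97 and 3.38 CPM in iNKT2, and lay 88099 bases from the gene. The next in order lay in or near Tmem132d, Ston2, Unc93a2, Unc93a, Supt20, Uspl1 and Tmx1.

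The regions near the paralogues Unc93a2 and Unc93a had almost the same values, 64.7 and 78.4 CPM beside 63.8 and 76.8 CPM in iNKT17, against 2.12 and 1.14 beside 2.65 and 1.1 CPM in iNKT1. If the copies are near-identical in sequence, reads may be split between them, so both levels are uncertain.

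The most selective regions were ranked by their ratio to the higher of the other means with 0.5 CPM added. The region nearest Iyd, which encodes an iodotyrosine deiodinase, led with a ratio of 30.1. It had 41.9 and 82.0 CPM in iNKT17, against 0.675 and 0.392 CPM in iNKT1 and 2.24 and 0.902 CPM in iNKT2, and lay at chr10:3516197-3517006, 23673 bases from the gene. Disp1 followed at 26.5, Tmem132d at 24.8, Pabpc4l at 24.7, Slc7a14 at 22.2, Smyd2 at 21.5, Ctnnd2 at 21.1, Ext1 and Usp6nl at 20.5 each. A region in a predicted gene at 20.9 also ranked here. Tmem132d and Ctnnd2 were therefore among the top 10 by level and by ratio.

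At the edges of the rule, the regions just inside the level limit included those of Cdh19 and Gabpb2 with iNKT17 means of 10.04 and 10.06 CPM, and those just outside were at Maml2, just under 10 CPM, and at Itgad and F13a1 with 9.996 and 9.973 CPM. Just inside the factor were regions of Jmjd1c, Pou2f3 and Cd70 with ratios of 4.012, 4.015 and 4.019, and just outside, besides Il17re, those of Zfp239 and Mast4 with 3.991 and 3.988.

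The RNA of the neighbouring genes was measured in separate libraries and asks whether genes beside these regions were also expressed more in iNKT17 cells. Of the 665 genes, 660 were matched to the RNA table and 431 passed the low-count filter. A gene that passes only because iNKT17 expresses it had to differ, so counts among the 431 describe them and no more. Of the 234 not tested, 167 had 0 reads in all 6 libraries. Tests were edgeR quasi-likelihood tests over 12372 genes, called at a Benjamini-Hochberg adjusted p below 0.05.

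Against iNKT1, RNA of 31 of the 431 genes rose in iNKT17 (7.19%), where 0.986% of all genes tested did, and RNA of 4 fell (0.928%), where 1.01% of all did. Against iNKT2, RNA of 23 rose (5.34%), where 0.436% of all did, and RNA of 3 fell (0.696%), where 0.275% of all did. The median log2 fold change was 0.50 over iNKT1 and 0.54 over iNKT2 among the 431, against −0.03 and −0.09 over all genes. Both iNKT17 RNA libraries stood above all 4 others for 130 of the 431 genes (30.2%), where 9.39% of all genes did. The log2 fold change was above 0 for 276 of the 431 genes over iNKT1 (64.0%) and for 305 over iNKT2 (70.8%). Over all genes tested, these shares were 47.9% and 46.2%. Both contrasts share the iNKT17 libraries. Leaving out 1 RNA library moved the count that rose against iNKT2 by more than 1.5 times each time, to 46 and 35 without iNKT17 library 1 and 2, 41 and 43 without iNKT1 library 1 and 2, and 36 and 37 without iNKT2 library 1 and 2. Over all genes in these refits, 97 to 173 rose against iNKT2, instead of 54. The count that fell against iNKT1 became 27 and 7 without iNKT17 library 1 and 2, where 801 and 291 of all genes fell, and 9 without iNKT2 library 1, where 215 of all fell. The count that fell against iNKT2 became 17 and 5 without iNKT17 library 1 and 2, where 658 and 156 of all fell. These refits tested 13995 to 14707 genes.

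The counts were also taken by the number of regions per gene. Among 346 tested genes with 1 region, 10 rose against iNKT1 (2.89%) and 9 against iNKT2 (2.60%). Among 63 with 2 regions, 13 rose against iNKT1 (20.6%) and 9 against iNKT2 (14.3%). Among 22 with 3 or more, 8 rose against iNKT1 (36.4%) and 5 against iNKT2 (22.7%). No gene with 2 or more regions fell (0 of 63 and 0 of 22), where 1.01% of all genes fell against iNKT1 and 0.275% against iNKT2, shares at which few or none would be seen among so few genes. The median log2 fold change was 0.29, 1.57 and 9.39 over iNKT1 for genes with 1, 2 and 3 or more regions, and 0.46, 1.38 and 4.88 over iNKT2. With groups at 0 reads set to their limit of 3 reads, the medians over iNKT1 were 0.29, 1.57 and 8.70. The difference between these classes was not tested.

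**Figure D4:**
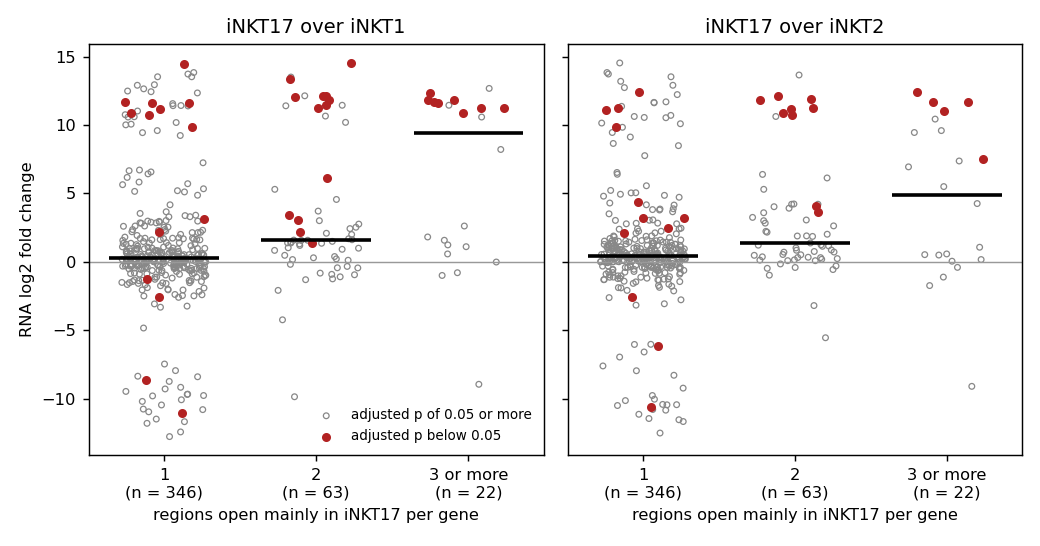
RNA log2 fold change of the tested genes, iNKT17 over iNKT1 (left) and iNKT17 over iNKT2 (right), by the number of regions open mainly in iNKT17 per gene. Each circle is a gene, filled red where the adjusted p of edgeR's test was below 0.05, and black lines are medians. The red circles make up 10 of 346, 13 of 63 and 8 of 22 rises on the left, and all circles that fell past the threshold have 1 region.

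The position of the regions was compared in the same way. Of 278 tested genes with a region inside the gene, 27 rose against iNKT1 (9.71%) and 19 against iNKT2 (6.83%). Of 153 whose regions lay only outside, 4 rose against iNKT1 (2.61%) and 4 against iNKT2 (2.61%). Beside the set itself, 258 tested genes of the iNKT1 set showed the other direction, with 4 that rose (1.55%) and 36 that fell (14.0%) in iNKT17 against iNKT1. Of 357 tested genes of the iNKT2 set, 4 rose and 4 fell against iNKT2 (1.12% each). Over all genes tested, 0.986% rose and 1.01% fell against iNKT1, and 0.436% rose and 0.275% fell against iNKT2. Across the 431 genes, the log2 ratio of summed accessibility and the RNA log2 fold change had a Spearman correlation of 0.16 for iNKT17 over iNKT1 and 0.09 for iNKT17 over iNKT2. The same libraries enter every point.

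Il1r1 had the smallest adjusted p of the genes named here. Its RNA was 1074 and 1144 CPM in iNKT17, against 0.392 and 0.209 CPM in iNKT1 and 0.372 and 0.289 CPM in iNKT2. The log2 fold change over iNKT1 was 11.84 ± 0.46 (SE, edgeR adjusted p of 5.57e-06). Over iNKT2 it was 11.69 ± 0.46 (SE, edgeR adjusted p of 6.01e-06). Here and below, SE is an approximation, the size of the log2 fold change divided by the square root of edgeR's F statistic. Il23r RNA was 631 and 536 CPM in iNKT17, against 0.163 and 0.0598 CPM in iNKT1 and 0.203 and 0.144 CPM in iNKT2. Its log2 fold changes were 12.32 ± 0.61 and 11.68 ± 0.59 (SE), with adjusted p of 1.35e-05 and 2.25e-05 by edgeR. For both receptors every iNKT17 library was above every other library by far more than the libraries of a sublineage differed.

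Blk RNA was 3009 and 1769 CPM in iNKT17, against 0.914 and 0.419 CPM in iNKT1 and 9.26 and 17.3 CPM in iNKT2, and rose against both (edgeR adjusted p of 0.000154 and 0.00144). Sdc1 RNA was 614 and 673 CPM in iNKT17, against 0.131 and 0.150 CPM in iNKT1 and 0.0676 and 0.217 CPM in iNKT2, and rose against both (adjusted p of 1.35e-05 and 2.25e-05). For both genes the iNKT17 libraries stood above all others.

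The other genes that rose most against both sublineages are less tied to iNKT17 cells. Coro2b, a coronin that binds actin, had 361 and 258 CPM in iNKT17, against 0.163 and 0 CPM in iNKT1 and 0.203 and 0.108 CPM in iNKT2 (adjusted p of 0.000567 and 0.00192). Mapk10, the JNK3 kinase, had 116 and 188 CPM in iNKT17, against 0.0979 and 0.0598 CPM in iNKT1 and 0.0338 and 0.108 CPM in iNKT2 (adjusted p of 0.00127 and 0.0032). Lrrc17 had 181 and 235 CPM in iNKT17, against 0.0326 and 0 CPM in iNKT1 and 0.0338 and 0.144 CPM in iNKT2 (adjusted p of 0.000472 and 0.00192). In all 3 the groups did not overlap.

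Fam83a, Rhobtb1, Dkk3 and Colgalt2 completed the 10 highest rises, each with 1 to 3 reads summed over both libraries of iNKT1 and of iNKT2, so no fold is given. Fam83a RNA was 191 and 238 CPM in iNKT17, with adjusted p of 0.000798 against iNKT1 and 0.00235 against iNKT2. Rhobtb1, with 5 regions, had 139 and 91.0 CPM in iNKT17, with adjusted p of 0.00637 and 0.0149. Dkk3, a secreted dickkopf-family protein, had 89.7 and 138 CPM in iNKT17 (adjusted p of 0.00677 and 0.0156), and Colgalt2, a collagen galactosyltransferase, had 150 and 125 CPM (adjusted p of 0.00936 and 0.0213).

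At gene starts both assays can be read at the same place. The 28 such regions belonged to 26 genes, of which 17 were tested. RNA of 6 rose against iNKT1 (35.3%), where 0.986% of all genes tested did, and RNA of 4 against iNKT2 (23.5%), where 0.436% did. None fell (0), where 1.01% of all fell against iNKT1 and 0.275% against iNKT2. At such shares few or none would be seen among 17 genes. Besides Il1r1, Il23r and Mapk10, those that rose were Gcnt1, Pde5a and Pxdc1 against iNKT1 and Tnk2 against iNKT2. Both iNKT17 libraries were above all others for 14 of the 17 (82.4%), where 9.39% of all genes did.

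Gcnt1, which builds core branches of O-linked glycans, had 168 and 282 CPM in iNKT17, against 0.196 and 0 CPM in iNKT1 and 28.7 and 3.90 CPM in iNKT2, with edgeR adjusted p of 0.0208 and 0.442. Pde5a, a phosphodiesterase of cyclic GMP, had 174 and 135 CPM in iNKT17, against 0.0326 and 0.0598 CPM in iNKT1 and 0.101 and 2.42 CPM in iNKT2, with adjusted p of 0.00795 and 0.0811. Pxdc1 had 368 and 422 CPM in iNKT17, against 0.228 and 0.0897 CPM in iNKT1 and 0.169 and 4.62 CPM in iNKT2, with adjusted p of 0.0438 and 0.189. Their groups did not overlap, yet each call against iNKT1 was lost when some libraries were left out. Without iNKT17 library 1 or 2 the adjusted p was 0.14 or 0.0599 for Gcnt1 and 0.251 or 0.407 for Pxdc1. Without iNKT1 library 1 or 2 it was 0.0585 or 0.0744 for Pde5a and 0.549 or 0.977 for Pxdc1. Calls against iNKT2 were gained without iNKT2 library 1, at adjusted p of 0.0106 for Gcnt1, 0.00339 for Pde5a and 6.03e-10 for Pxdc1. Tnk2, a non-receptor tyrosine kinase, had 201 and 261 CPM in iNKT17, against 360 and 265 CPM in iNKT1 and 50.9 and 54.0 CPM in iNKT2. It rose against iNKT2 alone (log2 fold change 2.14 ± 0.34, SE, adjusted p of 0.0258), and against iNKT1 its adjusted p was 0.684. With iNKT1 left out of the fit, its adjusted p against iNKT2 was 0.15.

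Open chromatin was not always matched by an RNA rise that passed the test. Il17a RNA was 39.7 and 15.1 CPM in iNKT17, against 0 and 0 CPM in iNKT1 and 0.0338 and 0.0361 CPM in iNKT2. The iNKT17 mean was at least 585-fold higher than the limit that 3 reads over both iNKT1 libraries allow, yet edgeR's adjusted p was 0.398 against iNKT1 and 0.669 against iNKT2. Il17f and Il22 had 0 reads in all 6 libraries, as did Il5, a type 2 cytokine gene with a region next to its start. Myo16, an unconventional myosin with 7 regions, and Synm, an intermediate filament protein with 4, also had 0 reads in every library. A count of 0 allows up to 3 reads over both libraries of a sublineage, for counting error only.

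Other genes with 4 or more regions did not pass the test. Mycn, a MYC-family factor with 5 regions including 2 on its start, had 57.0 and 55.5 CPM in iNKT17, against 0.0326 and 0 CPM in iNKT1 and 0.0676 and 2.42 CPM in iNKT2 (adjusted p of 0.236 and 0.698). Kcnk1, a potassium channel with 4 regions, had 76.9 and 77.6 CPM in iNKT17, against 0.0326 and 0.0598 CPM in iNKT1 and 0.0676 and 0.0361 CPM in iNKT2 (adjusted p of 0.0552 and 0.106). Trib2, a pseudokinase, had 223 and 91.3 CPM in iNKT17, against 76.2 and 56.7 CPM in iNKT1 and 124 and 97.8 CPM in iNKT2 (adjusted p of 0.459 and 0.894). Its 4 regions lay 133743 to 256741 bases away. Mycn and Kcnk1 had groups that did not overlap, and Trib2 had iNKT17 values on both sides of iNKT2. Stxbp4 and Wwox did not pass, and their libraries of a sublineage were far apart, such as 0 and 27.6 CPM for Wwox in iNKT17. Without iNKT2 library 1 or 2, Kcnk1 passed against iNKT1 (adjusted p of 0.00237 or 0.00728), without iNKT1 library 1 or 2 it passed against iNKT2 (0.015 or 0.0091), and Trib2 passed against iNKT1 without iNKT17 library 2 (0.0438). DESeq2 called Mycn, Kcnk1 and Il17a higher, with adjusted p against iNKT1 of 3.24e-06, 5.84e-15 and 3.16e-05.

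**Figure D5:**
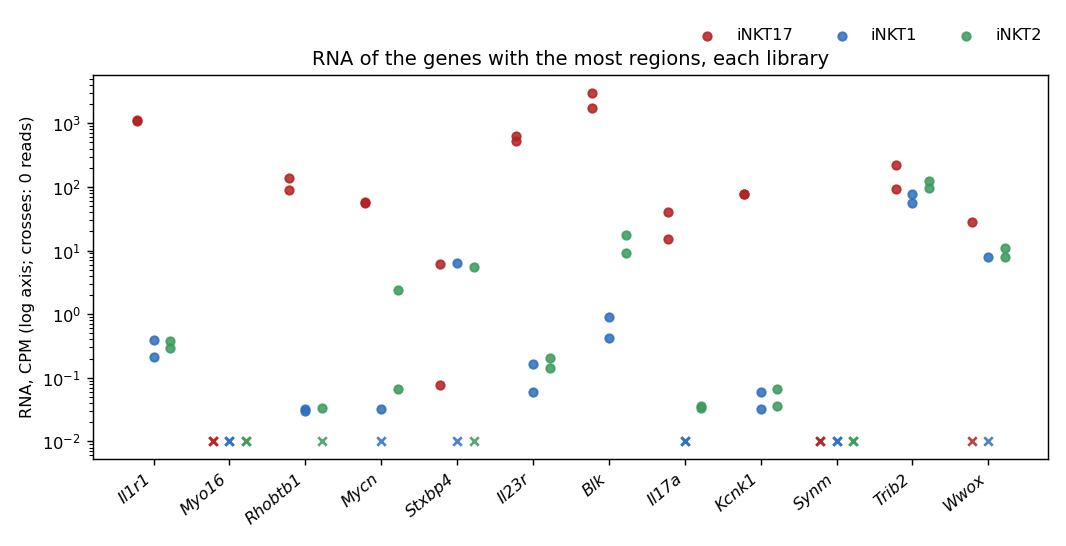
RNA level (CPM, log axis) in each library of the 12 named genes with 4 or more regions, with iNKT17 in red, iNKT1 in blue and iNKT2 in green; crosses mark 0 reads and are drawn at the foot of the axis. Il1r1, Il23r, Blk, Rhobtb1 and Kcnk1 have their iNKT17 libraries far above the rest, whereas Myo16 and Synm have 0 reads in all 6.

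Among the 12 type 17 genes with a region, 10 were tested, and RNA of 6 rose against iNKT1 and of 5 against iNKT2. Among the 27 without a region, 25 were tested, and RNA of 8 rose against iNKT1 and of 7 against iNKT2. Of all genes tested, 0.986% rose against iNKT1 and 0.436% against iNKT2. Serpinb1a, a protease inhibitor without a region, chosen after its values were seen, had 249 and 263 CPM in iNKT17, against 0.0979 and 0 CPM in iNKT1 and 0 and 0.108 CPM in iNKT2 (adjusted p of 0.00129 and 0.00339). Tmem176b, with a region on its start, had 392 and 477 CPM in iNKT17, against 0.196 and 9.87 CPM in iNKT1 and 0.135 and 9.24 CPM in iNKT2. It did not pass (adjusted p of 0.507 and 0.63). Nrp1 had 68.6 and 57.6 CPM in iNKT17, against 65.9 and 56.7 CPM in iNKT1 and 91.5 and 39.2 CPM in iNKT2, and its groups overlapped. Ahr had 53.6 and 112 CPM in iNKT17, against 69.3 and 59.7 CPM in iNKT1 and 31.1 and 26.6 CPM in iNKT2, with adjusted p of 0.948 and 0.638.

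RNA of 4 genes with a region was called lower in iNKT17, against iNKT1 alone or against both. They were 0.928% of the 431 tested genes, where 1.01% of all genes tested fell against iNKT1. Ifng, the type 1 cytokine gene, had 0.128 and 0.309 CPM in iNKT17, against 354 and 561 CPM in iNKT1 and 4.73 and 25.8 CPM in iNKT2, and fell against both (adjusted p of 0.00211 and 0.0394). Its region, chr10:118541028-118541588, was 95414 bases from the gene and had 19.9 and 24.0 CPM in iNKT17, against 2.26 and 1.06 CPM in iNKT1 and 2.99 and 1.35 CPM in iNKT2. Without iNKT17 library 1 or 2 the adjusted p of Ifng was 0.156 or 0.28 against iNKT1 and 0.348 or 0.586 against iNKT2. Fhl2, a LIM-domain protein, had 0.0321 and 0.116 CPM in iNKT17, against 17.6 and 42.9 CPM in iNKT1 and 119 and 123 CPM in iNKT2 (adjusted p of 0.00417 and 0.00485). With iNKT2 left out of the fit, its adjusted p against iNKT1 was 0.494. Its region lay inside the gene, as did those of Prkch and Dock10.

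Prkch, the eta form of protein kinase C, had 87.1 and 54.8 CPM in iNKT17, against 510 and 345 CPM in iNKT1 and 420 and 426 CPM in iNKT2, and fell by 2.59 ± 0.34 and by 2.57 ± 0.34 on the log2 scale (SE, adjusted p of 0.0036 and 0.0103). With iNKT1 left out of the fit, the adjusted p against iNKT2 was 0.0652. Dock10, an exchange factor for small GTPases, had 255 and 206 CPM in iNKT17, against 545 and 554 CPM in iNKT1 and 190 and 201 CPM in iNKT2. It fell against iNKT1 alone (adjusted p of 0.0478), a call lost without iNKT17 library 2 (adjusted p of 0.0848) and without iNKT1 library 1 or 2 (0.119 or 0.284). Each of these 4 genes had 1 region.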

How the data were processed

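Accessibility and RNA were measured in thymic iNKT17, iNKT1 and iNKT2 cells, 2 libraries of each kind per sublineage. The authors deposited read counts per ATAC region and read counts per gene, both not normalized. Per the submitters' processing notes the builds were mm10 and GRCm38, and the tools included STAR 2.5.4, Bowtie2, MACS2, bedtools 2.27.1 and HOMER 4.9.1; which tool made which table is not given in the sources used here. RNA libraries were stranded mRNA libraries, per the labels' protocols.

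Each ATAC count was divided by its column total and multiplied to CPM, without a further scaling, so a library in which a few regions take more of the counts reads lower elsewhere. Regions were assigned to the RefSeq protein-coding gene span (GRCm38.p6) that held their middle, or else to the nearest span. RNA was tested with edgeR 4.0.16 (R 4.3.3, limma 3.58.1): low-count filter filterByExpr, TMM scaling, robust quasi-likelihood fit of 6 libraries, Benjamini-Hochberg adjustment over 12372 genes, threshold 0.05. The common biological coefficient of variation was 1.3. The fit was also run on simulated counts, and the outcome is not used as support here. A count of 0 was given the limit of 3 reads. RNA CPM are not corrected for gene length and are compared within a gene only.

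The members and the gene lists were chosen with earlier results of these data known. Named were the 10 regions with the highest level and the 10 with the highest ratio, regions of the type 17 list, genes with the most regions, regions next to the thresholds, and, for RNA, the 10 genes that rose most against both, those that fell, and those called with a region on their start; predicted genes were left out. Some results of the type 17 list are not reported here. Alternatives were DESeq2 1.42.0, another scaling, no filter, a replicate block, fits of only the compared sublineages, each library left out, other thresholds and, chosen after seeing the data, assignment by the nearest known start and regions that passed in every library. The iNKT1 libraries split by CD4, the transplant libraries and the single-cell data were not used here.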

Additional observations from a re-analysis of the deposited data

How the results depend on the processing

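The number of regions was 1354 with a limit of 5 CPM and 340 with a limit of 20 CPM, instead of 833, and ran from 593 to 1117 when 1 ATAC library was left out. It was 804 with TMM-scaled totals, 1104 with a factor of 3 and 570 with a factor of 6. Of neighbouring genes, 31 rose against iNKT1. The count was 62 without the low-count filter (271 of all 17710 genes), 112 with DESeq2 (881 of all), 19 for regions within 50000 bases of the start, 6 for regions at promoters, and 31 to 46 with 1 RNA library left out. The 4 that fell against iNKT1 became 12 without the filter (288 of all), 31 with DESeq2 (975 of all), 1 within 50000 bases, 0 at promoters, 2 for regions that passed in every library, and 3 to 27 with 1 library left out. Against iNKT2, 23 rose, which became 59 without the filter (206 of all), 109 with DESeq2 (648 of all), 4 at promoters, and 35 to 46 with 1 library left out. The 3 that fell against iNKT2 became 17 with DESeq2 (803 of all), 1 with only the compared sublineages (5 of all), 1 within 50000 bases, 0 at promoters, and 3 to 17 with 1 library left out. The cause was not tested, apart from the smaller number of genes under the position limits. With the replicate number as a block the counts were 29 and 3 against iNKT1 and 24 and 3 against iNKT2. Deviations of same-numbered libraries correlated at -0.13, 0.06 and -0.04. With 2 libraries a sublineage, such values cannot tell whether the numbers pair the libraries. The block took the adjusted p of Dock10 to 0.0688 and of Pxdc1 to 0.156. The sign of the log2 fold change turned round under some alternatives for Stxbp4, Wwox, Trib2, Ahr and Nrp1, none of which was called in the fit reported. Stxbp4 over iNKT1, at -0.01, was 0.05 with RLE scaling, 0.68 with the block and 0.06 with DESeq2, and ran from -5.23 to 9.53 with 1 library left out. Stxbp4 over iNKT2 was -4.84 with the block, and Nrp1 over iNKT2 was 0.04. With 1 library left out, Stxbp4 over iNKT2 ran from -5.06 to 9.56, Wwox from -9.87 to 11.68 over iNKT1 and from -11.19 to 1.54 over iNKT2, Trib2 over iNKT2 from -0.28 to 1.01, Ahr over iNKT1 from -0.25 to 0.82, and Nrp1 from -0.07 to 0.18 over iNKT1 and from -0.54 to 0.71 over iNKT2. The other tested genes that the naming rule chose kept their direction under the alternatives run. With only the compared sublineages in the fit, the adjusted p against iNKT2 was 0.753 for Ifng and 0.0652 for Prkch, and against iNKT1 0.494 for Fhl2. With 2 libraries a group, a lone library left in a group is assumed to vary like the other groups.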
